A study of Mus musculus with 12 samples.

Results

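Type I interferon-induced genes were followed in OTII cells that had been primed in either WT or Il6-/- recipients. The set has 37 genes, chosen by symbol as well-known interferon-stimulated genes, with IRF, STAT and Schlafen genes left out, from the 40840 gene symbols in the count tables. Of the 37, 36 had enough reads to enter the test among 13570 genes in all. Phf11d, a relative of Phf11b, was the member left out, with 2 to 17 counts in a library.

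OTII cells are CD4+ T cells that carry a transgenic T-cell receptor for an ovalbumin (OVA) peptide. Naive OTII cells from donor mice were transferred into WT or Il6-/- mice, and the recipients were sensitized through the nose with house dust mite (HDM) extract and OVA. According to the study, the extract itself was low in endotoxin, and LPS was added to it for this experiment. The donor cells were sorted from the mediastinal lymph node (mLN) on Day 3 or Day 5 and poly(A) RNA was sequenced from ultra-low inputs, with 3 libraries in each of the 4 groups: WT Day 3, Il6-/- Day 3, WT Day 5 and Il6-/- Day 5. By the study's account all 4 groups received the same HDM, added LPS and OVA, and no group was left without LPS or antigen. The recipients carried the Il6 genotype and the donor cells did not, so the Il6 reads of the sorted cells are no check of the labels. The labels name blood as the tissue, whereas the study's methods describe sorting from the mLN. Neither the labels nor the methods give the age of the animals or say whether a library came from 1 animal or from a pool, so the p-values below measure the spread between these libraries.

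Type I interferons bind a receptor made of IFNAR1 and IFNAR2, which signals through the kinases JAK1 and TYK2. These phosphorylate STAT proteins, among them STAT2, which join IRF9 in the complex ISGF3, and ISGF3 binds a short promoter element, the interferon-stimulated response element, in front of interferon-stimulated genes. Many of the encoded proteins restrict viruses, and lymphocytes switch them on together after exposure to interferon. Part of the set can also be raised by interferon gamma or directly by IRF factors.

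The libraries held 16125947 to 26111657 counts on genes, with a median of 19727354. Levels below are CPM, read counts scaled to a common library total, on library sizes scaled by TMM, and differences are log2 fold changes ± SE from 1 edgeR quasi-likelihood model of the 12 libraries. A gene passed at an FDR under 0.05, adjusted over all 13570 genes. In a principal component analysis the days separated on the first axis (61% of variance) and the genotypes on the second (8.01%). The summed markers of CD4 T cells reached 6936 to 12506 CPM in every library, against 6.55 to 16.6 CPM for the B cell list, 8.31 to 44.2 CPM for the myeloid and dendritic cell list and 56.6 to 85.9 CPM for the CD8 list. Nearly all of the CD8 sum was Cd8b1, with group means of 62.7 to 74.7 CPM, beside 0.0653 to 1.04 CPM for Cd8a.

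The 37 members spanned a wide range of levels. Per length of transcript, Ifi27l2a was the most abundant, with group means of 790 RPKM in WT Day 3, 418 in Il6-/- Day 3, 1713 in WT Day 5 and 1246 in Il6-/- Day 5. Ifi27l2a encodes a small membrane protein of the IFI27 family. The Il6-/- Day 3 group had the lowest mean CPM of the 4 groups for 30 of the 37 members. The highest mean lay in WT Day 5 for 18 members, in WT Day 3 for 15, in Il6-/- Day 5 for 3 and in Il6-/- Day 3 for 1. The order of the groups was not counted over all genes, so how unusual these counts are is not known. Summed over the members without Ifi27l2a, the CPM were 1486, 1481 and 1617 in the WT Day 3 libraries, 1085, 1005 and 1146 in Il6-/- Day 3, 1573, 1635 and 1433 in WT Day 5, and 1502, 1441 and 1380 in Il6-/- Day 5. The 3 Il6-/- Day 3 libraries were lowest, apart from all other libraries, and the WT and Il6-/- ranges overlapped on Day 5. In sorted cells measured in bulk, fewer cells that express a gene and less RNA per cell cannot be told apart.

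**Figure D1:**
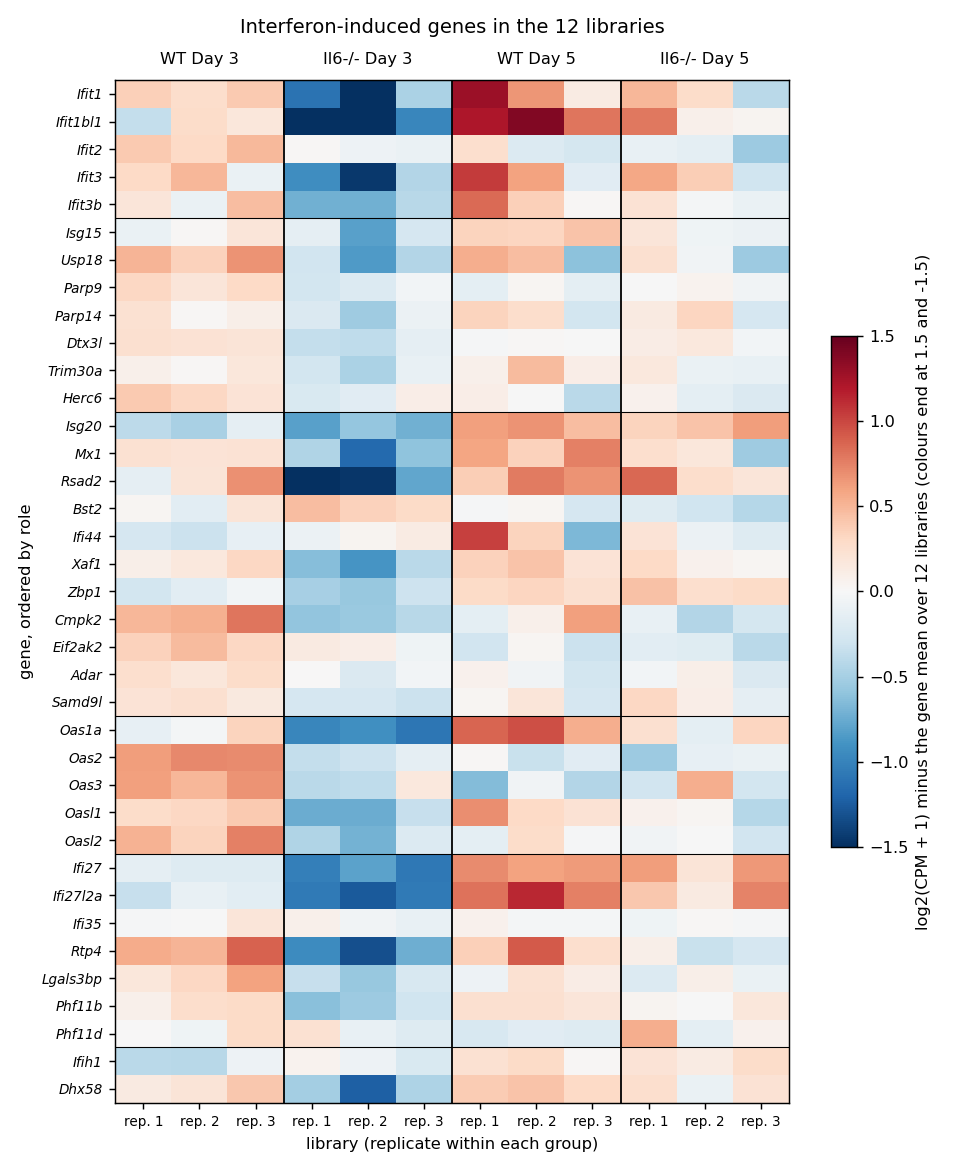
Heat map of the 37 members (one per line, grouped by role) in the 12 libraries (columns, grouped by recipient genotype and day). Colour gives the log2 CPM of a library less the gene's mean over the 12 libraries, and it ends at 1.5 and -1.5. The 3 Il6-/- Day 3 columns sit on the low side of the scale for most members, and the group mean is lowest there for 30 of 37, a count not made over all genes.

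To see whether priming without IL-6 in the recipient went with a different level of these genes early in the response, Il6-/- and WT recipients were compared on Day 3. In OTII cells from Il6-/- recipients, 27 of the 36 members tested were lower and 0 were higher, against 6.19% lower and 7.52% higher among all genes tested. At least a 2-fold change was seen for 14 of the 27, all lower, against 1.81% of all genes, and for 0 members in the other direction, against 0.936%. The median log2 difference of the members was -0.78, beside 0.01 over all genes. The 3 Il6-/- libraries lay below the 3 WT libraries without overlap for 32 members, against 15.7% of all genes, and above them for 2, Bst2 and Ifi44, against 20.5%. Among the members, 1 was higher at an unadjusted p under 0.05, Bst2, beside 2000 of all 13570 genes. Bst2 passed the FDR in DESeq2 and in limma-voom (log2 difference 0.35 in each).

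The count moved with the library left out, and so did the count over all genes, of which 840 were lower with all libraries kept. Without Il6-/- Day 3 replicate 2, which had the lowest level within its group for 16 of 36 members, 15 members were lower and 6 of them by 2-fold or more, and without replicate 1 of that group these counts were 17 and 9. Over all genes, 543 were lower without replicate 2 of that group and 500 without replicate 1. Each of the other 10 libraries could be left out with 19 to 30 members lower, beside 482 to 1082 of all genes. Of the 27 members, 13 passed in all 12 fits that left out a library, namely Ifit1bl1, Oas1a, Rsad2, Ifi27, Ifi27l2a, Dhx58, Rtp4, Xaf1, Parp9, Dtx3l, Cmpk2, Lgals3bp and Phf11b. Under the 11 other settings tried, 24 of the 27 kept their call, Isg20, Zbp1 and Adar lost it with the GC-content offset, and Isg20 also with that offset plus the replicate block and with limma-voom. Of the 9 members that did not pass, Ifit2 was lower past the threshold in all 11 of those settings, Herc6 in 10, Eif2ak2 in 6, Parp14 in 4 and Isg15 in 3, and Bst2 was higher past it in 6.

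**Figure D2:**
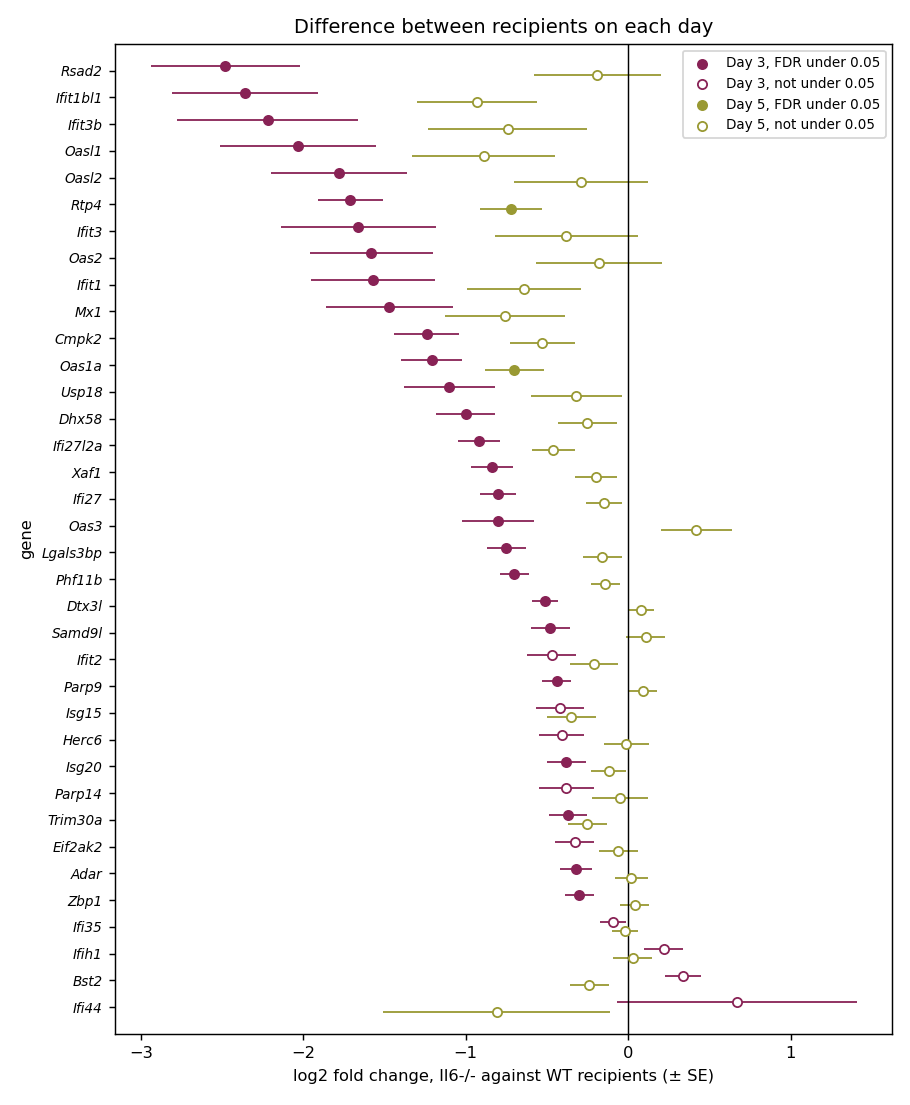
Log2 fold change (x axis) of each of the 36 members tested (y axis) between Il6-/- and WT recipients on Day 3 and on Day 5, with bars for the SE and filled points for an FDR under 0.05 in edgeR. On Day 3, 27 points are filled and all lie left of 0, and on Day 5 the filled points are Oas1a and Rtp4.

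Promoters are shown for the 4 members that passed in the interaction described below and had a promoter in the table (Dtx3l, Phf11b, Oas3 and Rsad2), and for the near-identical pair Ifit3 and Ifit3b. Whether the response element had a part in the changes was not tested. The sequences are RefSeq promoters on GRCm38.p6, from 250 bases before the start of the gene to 50 bases after it. Capitals mark the core of the response element, GAAANNGAAA on either strand. Ifit3 and Ifit3b carried 2 cores each on the antisense strand, in a stretch the pair shares, and Oas3, Rsad2 and Phf11b carried 1 each. In the window of Dtx3l these letters did not occur.
Ifit3, chr19:34583279-34583578, plus strand: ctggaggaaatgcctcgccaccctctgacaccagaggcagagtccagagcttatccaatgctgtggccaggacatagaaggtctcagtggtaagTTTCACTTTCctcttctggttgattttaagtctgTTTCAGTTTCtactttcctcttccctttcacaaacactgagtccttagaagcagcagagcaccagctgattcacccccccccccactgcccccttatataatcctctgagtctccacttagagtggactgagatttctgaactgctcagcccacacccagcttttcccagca
Ifit3b, chr19:34607707-34608006, plus strand: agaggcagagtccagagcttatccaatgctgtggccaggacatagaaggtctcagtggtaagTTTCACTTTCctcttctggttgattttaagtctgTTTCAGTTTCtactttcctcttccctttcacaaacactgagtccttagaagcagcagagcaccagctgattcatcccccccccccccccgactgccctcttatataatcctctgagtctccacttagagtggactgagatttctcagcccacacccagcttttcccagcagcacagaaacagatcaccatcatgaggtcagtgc
Rsad2, chr12:26456403-26456702, minus strand: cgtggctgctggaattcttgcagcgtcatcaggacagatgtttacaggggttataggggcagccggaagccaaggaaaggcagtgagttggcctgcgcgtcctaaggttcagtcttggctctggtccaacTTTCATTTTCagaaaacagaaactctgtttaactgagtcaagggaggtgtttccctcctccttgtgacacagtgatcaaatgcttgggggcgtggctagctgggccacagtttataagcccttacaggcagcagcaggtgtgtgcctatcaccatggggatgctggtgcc
Oas3, chr5:120777610-120777909, minus strand: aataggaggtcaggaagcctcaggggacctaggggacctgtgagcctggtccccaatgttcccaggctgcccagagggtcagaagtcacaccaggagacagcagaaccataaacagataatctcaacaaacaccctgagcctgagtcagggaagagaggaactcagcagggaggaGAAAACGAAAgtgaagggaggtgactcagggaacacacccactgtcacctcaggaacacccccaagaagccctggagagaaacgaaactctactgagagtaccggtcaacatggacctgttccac
Phf11b, chr14:59341281-59341580, minus strand: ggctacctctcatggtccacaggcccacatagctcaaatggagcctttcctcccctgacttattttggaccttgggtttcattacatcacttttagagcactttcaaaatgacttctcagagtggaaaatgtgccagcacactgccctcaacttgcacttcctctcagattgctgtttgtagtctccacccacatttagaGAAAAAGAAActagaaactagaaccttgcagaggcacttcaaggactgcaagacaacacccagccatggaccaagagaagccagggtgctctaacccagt
Dtx3l, chr16:35938978-35939277, minus strand: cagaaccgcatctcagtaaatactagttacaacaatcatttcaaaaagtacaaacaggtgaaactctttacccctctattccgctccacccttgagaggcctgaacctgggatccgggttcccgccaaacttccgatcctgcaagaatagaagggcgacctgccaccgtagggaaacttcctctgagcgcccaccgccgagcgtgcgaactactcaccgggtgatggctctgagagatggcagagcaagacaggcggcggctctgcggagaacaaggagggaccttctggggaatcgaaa

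The promoter table held a promoter for 27 of the 37 members, and 13 of the 27 (48.1%) had the core in at least 1 promoter, against 3.99% of the 27025 genes in the table. These were Ifit1, Ifit1bl1, Ifit3, Ifit3b, Isg15, Oas1a, Oas3, Rsad2, Bst2, Ifih1, Trim30a, Eif2ak2 and Phf11b. The longer form GAAANNGAAACT, each match of which contains a core, was present in 7 members (25.9%) and in 0.303% of the genes. The gamma-activated site TTCNNNGAA was present in 7 members (Ifit2, Isg20, Oas1a, Bst2, Ifi35, Eif2ak2 and Adar), against 9.55% of the genes. Both searches covered both strands. Among the 13 tested members with a core, 9 were lower in Il6-/- recipients on Day 3 with a median log2 difference of -0.80, and among the 13 with a promoter and no core 9 were lower with a median of -0.48. Of the 10 members with no promoter in the table, 9 were lower with a median of -0.96. No promoter was given for Mx1, Oas2, Usp18, Ifi27, Ifi27l2a, Dhx58, Rtp4, Zbp1, Parp9 and Parp14.

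IFIT proteins bind viral RNA that lacks the host's cap methylation and block its translation. On Day 3, 4 of the 5 IFIT genes were lower in Il6-/- recipients, each by more than 2-fold, and their median log2 difference was -1.66. All 5 lie in 1 cluster on chromosome 19 (GRCm39, from Ifit2 at chr19:34527932-34554524 to Ifit1 at chr19:34618271-34632174).

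Ifit1 had 12.4, 11.5 and 12.7 CPM in WT and 3.85, 1.86 and 6.54 CPM in Il6-/- recipients on Day 3, and 24.5, 15.5 and 10.4 against 13.8, 11.7 and 6.87 CPM on Day 5. The groups did not overlap on Day 3 and overlapped on Day 5. On Day 3 the log2 difference was -1.57 ± 0.38 (edgeR FDR = 0.012), and without Il6-/- Day 3 replicate 1 or replicate 2 the FDR was 0.05 to 0.055. Ifit1bl1, a paralog of Ifit1, had 2.57, 4.55 and 4.13 CPM in WT and 0.264, 0.530 and 1.33 CPM in Il6-/- recipients on Day 3, and 9.62, 11 and 7.01 against 6.93, 3.81 and 3.70 CPM on Day 5. Every Il6-/- library lay below every WT library on both days. Its Day 3 log2 difference was -2.36 ± 0.45 (edgeR FDR = 0.0027), a 5.15-fold lower level.

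Ifit3 had 3.98, 4.70 and 2.77 CPM in WT and 1.11, 0.477 and 1.99 CPM in Il6-/- recipients on Day 3, and 7.33, 5.14 and 2.59 against 5.03, 4.22 and 2.29 CPM on Day 5. Ifit3b had 1.17, 0.791 and 1.63 against 0.158, 0.159 and 0.427 CPM on Day 3, and 2.44, 1.45 and 0.940 against 1.22, 0.879 and 0.781 CPM on Day 5. Both genes were separate between genotypes on Day 3 and not on Day 5, and Ifit3b rested on 3 to 9 counts in an Il6-/- Day 3 library. The Day 3 log2 differences were -1.66 ± 0.48 (edgeR FDR = 0.031) for Ifit3 and -2.22 ± 0.56 (edgeR FDR = 0.016) for Ifit3b. Neither passed without Il6-/- Day 3 replicate 1 or replicate 2, and Ifit3 also failed without WT Day 3 replicate 1 or 2 and Ifit3b without WT Day 3 replicate 3. Of the stretches of 50 bases in Ifit3 transcripts 31.5% also occur in Ifit3b, and 47.8% the other way. Reads with more than 1 alignment, 23.7% to 28.2% of those in a library, were left out of the gene counts. The separate values of the pair are therefore uncertain. Ifit2, the remaining family member, had 26.6 to 30.5 CPM in WT and 20.0 to 21.7 CPM in Il6-/- recipients on Day 3, and a log2 difference of -0.47 ± 0.15 with an edgeR FDR of 0.051, which missed the threshold, whereas the 11 other settings gave an FDR of 0.0034 to 0.048.

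The oligoadenylate synthetases sense double-stranded RNA and make the second messenger that activates RNase L. OASL1 and OASL2 are related proteins. All 5 family members were lower in Il6-/- recipients on Day 3, with a median log2 difference of -1.58. Oas1a had 9.79, 10.6 and 13.9 CPM in WT and 4.96, 5.25 and 4.55 CPM in Il6-/- recipients on Day 3, and 20.6, 22.1 and 16.2 against 12.9, 9.67 and 13.7 CPM on Day 5. It was 1 of the 2 members that passed on both days, and the genotypes did not overlap on either. The log2 difference was -1.21 ± 0.19 on Day 3 (edgeR FDR = 0.00074) and -0.70 ± 0.18 on Day 5 (edgeR FDR = 0.037). Of its 50-base stretches, 14.4% also occur in Oas1g.

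Oas2 had 2.46, 2.67 and 2.66 CPM in WT and 0.739, 0.796 and 1.04 CPM in Il6-/- recipients on Day 3, and 1.27, 0.779 and 0.987 against 0.529, 1.05 and 1.09 CPM on Day 5. Oas3 had 54.9, 50.5 and 57.4 against 26.6, 27.0 and 39.7 CPM on Day 3, and 22.2, 34.1 and 26 against 28.8, 52.4 and 29.2 CPM on Day 5. The genotypes did not overlap on Day 3 for either gene. For Oas2 the WT Day 3 libraries stood above every other library, and for Oas3 above every other but Il6-/- Day 5 replicate 2. The difference on Day 3 was, on the log2 scale, -1.58 ± 0.38 for Oas2 (edgeR FDR = 0.012) and -0.80 ± 0.22 for Oas3 (edgeR FDR = 0.024). Oas2 did not pass without Il6-/- Day 3 replicate 1, nor Oas3 without replicate 1 or 2 of that group or any 1 of the WT Day 3 libraries.

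Oasl1 had 1.56, 1.63 and 1.79 CPM in WT and 0.264, 0.265 and 0.664 CPM in Il6-/- recipients on Day 3, and 2.44, 1.61 and 1.46 against 1.22, 1.17 and 0.573 CPM on Day 5. Oasl2 had 2.22, 1.83 and 2.77 against 0.634, 0.371 and 0.948 CPM on Day 3, and 1.02, 1.71 and 1.22 against 1.16, 1.23 and 0.833 CPM on Day 5. The Day 3 genotypes did not overlap for either gene, at levels of 5 to 57 counts in a library. In edgeR the Day 3 log2 difference was -2.03 ± 0.48 for Oasl1 (edgeR FDR = 0.011) and -1.78 ± 0.42 for Oasl2 (edgeR FDR = 0.01). Without Il6-/- Day 3 replicate 2 both lost the call, and without replicate 1 Oasl1 did, with an FDR of 0.05 to 0.055.

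ISG15 is a ubiquitin-like protein that is attached to other proteins, HERC6 is its ligase in mice, and USP18 removes it and also blocks the interferon receptor. DTX3L and PARP9 form a complex of a ubiquitin ligase and an inactive ADP-ribosyltransferase, PARP14 is an active ADP-ribosyltransferase, and TRIM30A is a TRIM family protein that restrains Toll-like receptor signaling. Of these 7 genes, Usp18, Parp9, Dtx3l and Trim30a were lower in Il6-/- recipients on Day 3, and for all 7 the Il6-/- libraries lay below the WT libraries without overlap.

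Usp18 had 18.5, 16.4 and 20.7 CPM in WT and 10.2, 6.58 and 9.10 CPM in Il6-/- recipients on Day 3, and 18.9, 17.9 and 7.90 against 15.1, 12.2 and 8.38 CPM on Day 5. Its Day 3 log2 difference was -1.1 ± 0.28 (edgeR FDR = 0.018), and it did not pass without WT Day 3 replicate 3 or Il6-/- Day 3 replicate 2. The Day 5 genotypes overlapped, with WT Day 5 replicate 3 lowest of the 6.

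Parp9 had 90.2, 81.9 and 89.5 CPM in WT and 59.6, 62.6 and 70.3 CPM in Il6-/- recipients on Day 3, and 65.1, 73.8 and 65.0 against 71.9, 75.3 and 69.9 CPM on Day 5. Dtx3l had 81.9, 80.3 and 79.0 against 53.5, 52.9 and 62.9 CPM on Day 3, and 68.0, 69.8 and 68.8 against 74.5, 77.1 and 67.2 CPM on Day 5. Both were separate between genotypes on Day 3 and overlapped on Day 5. Between genotypes on Day 3 the log2 difference was -0.44 ± 0.09 for Parp9 (edgeR FDR = 0.0033) and -0.51 ± 0.08 for Dtx3l (edgeR FDR = 0.0011). The 2 genes lie head to head on chromosome 16 and their exons overlap by 458 bases (GRCm39, Dtx3l at chr16:35746881-35759521 and Parp9 at chr16:35758840-35792980). Since reads were counted without regard to strand, reads from the overlap cannot be assigned to 1 of the genes. Reads ambiguous between genes, 1.96% to 2.28% of those in a library, were left out of the gene counts.

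Trim30a had 86.7 to 96.5 CPM in WT and 61.4 to 78.8 CPM in Il6-/- recipients on Day 3 (log2 difference -0.37 ± 0.12, edgeR FDR = 0.048), a call lost without any 1 of the WT Day 3 libraries, without Il6-/- Day 3 replicate 1 or 2, or without Il6-/- Day 5 replicate 3. Isg15 ran from 30.5 to 37.2 CPM in WT and from 18.2 to 29.7 CPM in Il6-/- recipients on Day 3, and its log2 difference of -0.42 ± 0.15 did not pass (edgeR FDR = 0.081). Of its 50-base stretches 23.6% also occur in the overlapping gene model Gm46878. Herc6, at 39.4 to 45.0 against 28.8 to 36.4 CPM, had a log2 difference of -0.41 ± 0.14 (edgeR FDR = 0.057), and Parp14, at 55.3 to 64.2 against 37.5 to 51.7 CPM, one of -0.38 ± 0.17 (edgeR FDR = 0.16).

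Of 11 other antiviral effectors, 8 were lower in Il6-/- recipients on Day 3. The steepest difference of any member was in Rsad2, which encodes viperin, an enzyme that makes a chain-terminating nucleotide. Rsad2 had 2.57, 3.46 and 5.32 CPM in WT and 0.264, 0.424 and 1.28 CPM in Il6-/- recipients on Day 3, and 4.07, 5.71 and 5.27 against 6.09, 3.69 and 3.44 CPM on Day 5. The Day 3 genotypes were separate and the Day 5 genotypes overlapped. On Day 3 the log2 difference was -2.48 ± 0.46 (edgeR FDR = 0.0025), a 5.59-fold lower level on 5 to 27 counts in an Il6-/- library.

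Cmpk2, a mitochondrial nucleotide kinase whose gene is a neighbour of Rsad2 on chromosome 12, had 15.6, 16.0 and 19.4 CPM in WT and 6.76, 7.0 and 7.77 CPM in Il6-/- recipients on Day 3, and 9.62, 11.4 and 17 against 9.90, 7.62 and 8.74 CPM on Day 5. Mx1, a dynamin-like GTPase that traps viral components, had 2.89, 2.82 and 2.88 against 1.43, 0.477 and 1.18 CPM on Day 3, and 4.02, 3.22 and 4.61 against 2.96, 2.75 and 1.30 CPM on Day 5. Mx1 was separate between genotypes on both days, and Cmpk2 was separate on Day 3 and overlapped on Day 5. The difference on Day 3 was, on the log2 scale, -1.24 ± 0.20 for Cmpk2 (edgeR FDR = 0.00087) and -1.47 ± 0.39 for Mx1 (edgeR FDR = 0.022). Mx1 did not pass without WT Day 3 replicate 2 or 3 or Il6-/- Day 3 replicate 2.

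Isg20, an exonuclease that degrades single-stranded RNA, had 30.4, 28.6 and 36.5 CPM in WT and 22.5, 26.7 and 24 CPM in Il6-/- recipients on Day 3, and 62.2, 64.7 and 55.8 against 51.2, 54.7 and 62.7 CPM on Day 5. Its Day 3 log2 difference of -0.38 ± 0.12 (edgeR FDR = 0.041) was lost without any 1 of the 3 Il6-/- Day 3 libraries or WT Day 3 replicate 1 or 3. Xaf1, a binding partner of the apoptosis inhibitor XIAP, was lower at 38.6 to 45.2 against 19.3 to 27.3 CPM (log2 difference -0.84 ± 0.13, edgeR FDR = 0.00066). Samd9l, a restriction factor of poxviruses, was lower at 59.0 to 63.4 against 42.4 to 44.8 CPM (log2 difference -0.48 ± 0.12, edgeR FDR = 0.015), and did not pass without WT Day 3 replicate 2 or Il6-/- Day 3 replicate 3.

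Zbp1, a sensor of Z-form nucleic acid that triggers cell death, had 84.0 to 99.6 CPM in WT and 68.6 to 82.2 CPM in Il6-/- recipients on Day 3 (log2 difference -0.30 ± 0.09, edgeR FDR = 0.036). Adar, the enzyme that edits adenosine to inosine in double-stranded RNA, had 152 to 164 against 116 to 136 CPM (log2 difference -0.32 ± 0.10, edgeR FDR = 0.048). Neither call was kept when WT Day 3 replicate 2 or 3, or Il6-/- Day 3 replicate 1 or 2, was left out, and Adar also lost it without any 1 of WT Day 3 replicate 1, WT Day 5 replicate 2, Il6-/- Day 3 replicate 3 and Il6-/- Day 5 replicate 1. Eif2ak2, the RNA-dependent kinase PKR, had 42.4 to 47.8 against 32.6 to 37.6 CPM and did not pass (log2 difference -0.33 ± 0.12, edgeR FDR = 0.075).

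Both members above WT without overlap on Day 3 were in this group. Bst2, or tetherin, which holds budding virus at the cell surface, had 31.4 to 40.2 CPM in WT and 42.9 to 48.7 CPM in Il6-/- recipients (log2 difference 0.34 ± 0.11, edgeR FDR = 0.058). Ifi44 had 0.396 to 0.597 against 0.634 to 0.900 CPM, on 8 to 19 counts (log2 difference 0.67 ± 0.74, edgeR FDR = 0.62).

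Of the 2 cytoplasmic RNA sensors, Dhx58 was lower and Ifih1 did not pass. Dhx58, which encodes LGP2, had 19.7, 20.5 and 24 CPM in WT and 12.3, 7.05 and 12.7 CPM in Il6-/- recipients on Day 3, and 23.6, 24.4 and 22.2 against 21.4, 16.6 and 20.9 CPM on Day 5. The genotypes did not overlap on either day. Its log2 difference was -1.0 ± 0.18 on Day 3 (edgeR FDR = 0.0021) and -0.25 ± 0.18 on Day 5 (edgeR FDR = 0.47). Ifih1, which encodes MDA5, ran from 20.7 to 26.3 CPM in WT and from 23.7 to 28.9 CPM in Il6-/- recipients on Day 3 (log2 difference 0.22 ± 0.12, edgeR FDR = 0.27).

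Of the 6 remaining members tested, 5 were lower on Day 3. Rtp4, a receptor transporter protein, had 36.2, 34.9 and 45.7 CPM in WT and 12.2, 9.18 and 14.2 CPM in Il6-/- recipients on Day 3, and 31.5, 46.9 and 29.2 against 26, 19 and 20.3 CPM on Day 5. With Oas1a it passed on both days, and the genotypes were separate on both. The log2 difference was -1.71 ± 0.20 on Day 3 (edgeR FDR = 8.7e-05) and -0.72 ± 0.19 on Day 5 (edgeR FDR = 0.047). Of its 50-base stretches 25.7% also occur in the gene model Gm45338.

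Ifi27 had 93.4, 89.8 and 89.4 CPM in WT and 49.7, 58.4 and 48.3 CPM in Il6-/- recipients on Day 3, and 168, 156 and 160 against 159, 117 and 161 CPM on Day 5. Ifi27l2a had 778, 912 and 882 against 474, 412 and 474 CPM on Day 3, and 1736, 2170 and 1670 against 1311, 1087 and 1658 CPM on Day 5. Ifi27l2a was separate between genotypes on both days, and Ifi27 was separate on Day 3 and overlapped on Day 5. In edgeR the Day 3 log2 difference was -0.80 ± 0.11 for Ifi27 (edgeR FDR = 0.00033) and -0.92 ± 0.13 for Ifi27l2a (edgeR FDR = 0.00044). Their exons overlap by 163 bases on opposite strands of chromosome 12.

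Phf11b, a PHD finger protein, had 110, 125 and 127 CPM in WT and 66.8, 70.8 and 84.3 CPM in Il6-/- recipients on Day 3, and 123, 123 and 118 against 107, 104 and 117 CPM on Day 5. The Il6-/- Day 3 libraries lay below all others. Between genotypes on Day 3 the log2 difference was -0.70 ± 0.09 (edgeR FDR = 0.00023). Of the 50-base stretches of Phf11b 45% also occur in other genes, most often in its relative Phf11a (20.1%). Lgals3bp, a secreted galectin-binding glycoprotein, was lower at 110 to 149 against 65.8 to 82.7 CPM (log2 difference -0.75 ± 0.12, edgeR FDR = 0.0011). Ifi35, an adaptor-like interferon-induced protein, had 77.9 to 89.6 against 73.2 to 83.0 CPM and did not pass (log2 difference -0.09 ± 0.08, edgeR FDR = 0.56).

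On Day 5 the same comparison asked whether the difference was still present. Of the 36 members, 2 were lower in Il6-/- recipients, Oas1a and Rtp4, and 0 were higher, against 3.35% lower and 1.27% higher among all genes. At an unadjusted p under 0.05, 6 were lower and 0 higher, beside 1405 lower and 1285 higher of all 13570 genes. DESeq2 called 3 members lower and 0 higher, beside 638 genes lower and 489 higher. The median log2 difference was -0.20 beside 0.01 over all genes, and no member reached a 2-fold change, against 0.818% of all genes lower and 0.324% higher. Without overlap between libraries 9 members were lower, against 11.0% of all genes, and 0 were higher, against 8.65%. The Day 5 difference was smaller in size than the Day 3 difference for 35 of the 36 members, in comparisons that share no library. The share of all genes with a smaller difference on Day 5 was not counted. Fewer of all genes passed on Day 5 too, 626 against 1861 on Day 3. Both Day 5 calls depended on single libraries: the count was 0 without WT Day 3 replicate 2, WT Day 5 replicate 1, WT Day 5 replicate 2, Il6-/- Day 3 replicate 1 or Il6-/- Day 5 replicate 2, and 1 without WT Day 3 replicate 3, Il6-/- Day 3 replicate 2, Il6-/- Day 3 replicate 3 or Il6-/- Day 5 replicate 3. Over all genes 454 were lower with all libraries, 181 to 392 in the fits with 0 members and 229 to 410 in those with 1. The member count was also 0 in a fit of the Day 5 libraries alone, where 304 of 13016 genes were lower.

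On Day 5, libraries of both genotypes that carried the same replicate number deviated together from their group means, so the fit with the replicate number as a block stands beside this comparison. With the block, 4 members were lower, namely Ifit1bl1 (log2 difference -0.96, edgeR FDR = 0.042), Oas1a (-0.70, edgeR FDR = 0.026), Ifi27l2a (-0.47, edgeR FDR = 0.034) and Rtp4 (-0.70, edgeR FDR = 0.011). Oas3 was higher (0.39, edgeR FDR = 0.048). Over all 13570 genes the block called 855 lower and 737 higher, 1592 in all against 626 without it.

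The change from Day 3 to Day 5 was then read within each genotype. These comparisons share their Day 3 and Day 5 libraries with the comparisons of genotypes, so each is given by its own values. In WT recipients 7 of the 36 members rose, against 29.5% of all genes, and 8 fell, against 27.1%, and the median log2 change was 0.07 beside 0.09 over all genes. At least a 2-fold change was seen for 2 members that rose (Ifit1bl1 and Ifi27l2a), against 12.7% of all genes, and for 1 that fell (Oas2), against 9.39%. The Day 5 libraries lay above the Day 3 libraries without overlap for 9 members, against 33.4% of all genes, and below them for 9, against 29.9%. With upper-quartile scaling, which moved the median of all genes to 0.29, 10 rose and 3 fell. The 7 that rose were Ifit1bl1, Isg20, Oas1a, Ifi27, Ifi27l2a, Ifih1 and Zbp1. The 8 that fell were Ifit2, Oas2, Oas3, Parp9, Dtx3l, Herc6, Eif2ak2 and Adar, and with upper-quartile scaling Oas2, Oas3 and Eif2ak2 were the members still called. Without WT Day 3 replicate 3, or without WT Day 5 replicate 3, 5 members fell, beside 3423 and 3457 of all genes, against 3684 with all libraries. Adar did not pass in either of these fits, and Herc6 did not without WT Day 3 replicate 1 or WT Day 5 replicate 3.

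In Il6-/- recipients 21 members rose, against 30.4% of all genes, and 2 fell, Bst2 and Eif2ak2, against 30.1%. At least a 2-fold rise was seen for 11 members, against 14.5% of all genes, and a fall of that size for 0, against 11.4%. The median log2 change was 0.43 beside 0.09 over all genes. The Day 5 libraries lay above the Day 3 libraries without overlap for 19 members, against 33.1% of all genes, and below them for 3, against 32.7%. The fall of Eif2ak2 did not pass without Il6-/- Day 3 replicate 1, Il6-/- Day 3 replicate 2 or Il6-/- Day 5 replicate 3, nor with upper-quartile scaling, without scaling or with the GC-content offset.

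**Figure D3:**
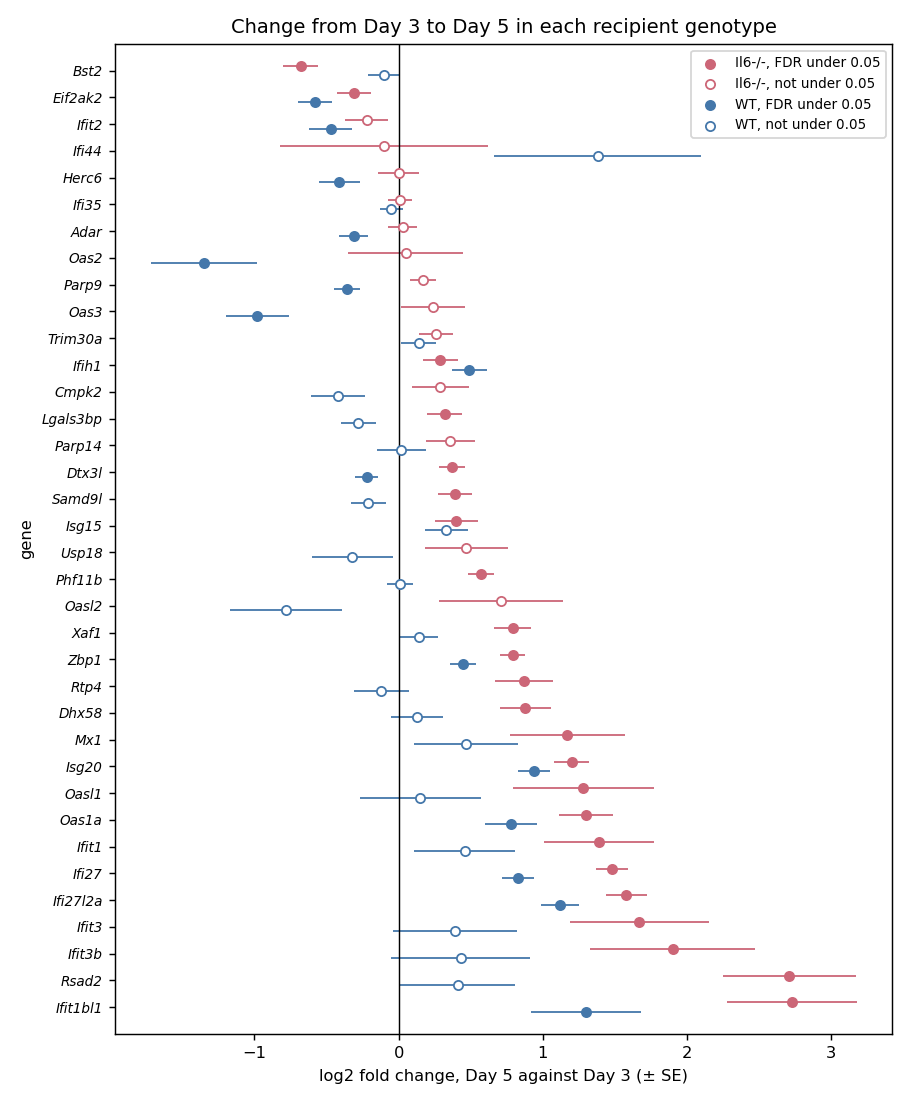
Log2 fold change (x axis) of each of the 36 members tested (y axis) from Day 3 to Day 5 in Il6-/- and in WT recipients, with bars for the SE and filled points for an FDR under 0.05 in edgeR. In Il6-/- recipients 21 filled points lie right of 0 and 2 left of it, and in WT recipients 7 lie right and 8 left.

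By role, 4 of 5 IFIT genes rose in Il6-/- recipients and 1 of 5, Ifit1bl1, rose in WT recipients. Ifit1bl1 rose by 2.73 ± 0.45 on the log2 scale in Il6-/- recipients (edgeR FDR = 8.3e-05) and by 1.30 ± 0.38 in WT recipients (edgeR FDR = 0.0084). Ifit1, Ifit3 and Ifit3b rose in Il6-/- recipients by 1.39 ± 0.38 (edgeR FDR = 0.0053), 1.67 ± 0.48 (edgeR FDR = 0.0072) and 1.90 ± 0.57 (edgeR FDR = 0.0096) on the log2 scale. Ifit2 did not rise in either, and in WT recipients it fell (log2 change -0.47 ± 0.15, edgeR FDR = 0.015), a call lost without WT Day 3 replicate 3, WT Day 5 replicate 2 or WT Day 5 replicate 3.

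The OAS family split within WT recipients. Oas1a rose by 0.78 ± 0.18 on the log2 scale (edgeR FDR = 0.0016), and Oas2 and Oas3 changed by -1.35 ± 0.37 (edgeR FDR = 0.0062) and -0.98 ± 0.22 (edgeR FDR = 0.0014). In Il6-/- recipients Oas1a rose by 1.30 ± 0.19 (edgeR FDR = 2.8e-05) and Oasl1 by 1.28 ± 0.49 (edgeR FDR = 0.034), the latter lost without any 1 of replicates 1 and 2 of both Il6-/- groups and kept in 5 of 11 other settings (FDR up to 0.12). The 3 other members did not pass there.

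The largest rises in other roles in Il6-/- recipients were in Rsad2 (2.71 ± 0.46 on the log2 scale, edgeR FDR = 0.00013), Ifi27l2a (1.58 ± 0.14, edgeR FDR = 1.4e-07), Ifi27 (1.48 ± 0.11, edgeR FDR = 5.2e-08), Isg20 (1.20 ± 0.12, edgeR FDR = 4.6e-07) and Mx1 (1.17 ± 0.40, edgeR FDR = 0.019). Mx1 did not pass without Il6-/- Day 3 replicate 2, Il6-/- Day 5 replicate 1 or Il6-/- Day 5 replicate 2. In WT recipients Ifi27l2a rose by 1.12 ± 0.13 (edgeR FDR = 4.8e-06), Isg20 by 0.94 ± 0.11 (edgeR FDR = 6e-06) and Ifi27 by 0.83 ± 0.11 (edgeR FDR = 1.4e-05), and Rsad2 and Mx1 did not pass. Both sensors rose in Il6-/- recipients, Dhx58 by 0.88 ± 0.18 (edgeR FDR = 0.00073) and Ifih1 by 0.29 ± 0.12 (edgeR FDR = 0.049), the latter a call that 8 of the 12 libraries could each remove and that 7 of 11 other settings kept. Rtp4 rose by 0.87 ± 0.20 (edgeR FDR = 0.0015) and Phf11b by 0.57 ± 0.09 (edgeR FDR = 8.7e-05). Bst2 went the other way, with a log2 change of -0.68 ± 0.12 (edgeR FDR = 0.00011).

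The other members that rose in Il6-/- recipients did so by less than 2-fold. Zbp1 and Xaf1 each rose by 0.79 on the log2 scale (edgeR FDR = 2.4e-06 and 8.3e-05), and Zbp1 rose in WT recipients too, by 0.45 ± 0.09 (edgeR FDR = 0.00055). Isg15 rose by 0.40 ± 0.15 (edgeR FDR = 0.033), Samd9l by 0.39 ± 0.12 (edgeR FDR = 0.011) and Lgals3bp by 0.32 ± 0.12 (edgeR FDR = 0.039). With the GC-content offset Isg15 and Lgals3bp did not pass. Isg15 lost the call without Il6-/- Day 3 replicate 2 or Il6-/- Day 5 replicate 1, Samd9l without Il6-/- Day 5 replicate 1, and Lgals3bp without WT Day 3 replicate 2, Il6-/- Day 3 replicate 1 or 2, or Il6-/- Day 5 replicate 2 or 3.

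Whether the change with time itself differed between genotypes was tested as an interaction. The change was more positive in Il6-/- than in WT recipients for 6 of 36 members, against 1.80% of all genes, and more negative for 0, against 3.12%. At an unadjusted p under 0.05 these counts were 18 and 1, beside 1207 and 1571 of all 13570 genes. With limma-voom they were 6 and 0, beside 216 and 376 genes, and with DESeq2 11 and 1, beside 482 and 650. With the replicate number as a block the member counts were 15 and 1, beside 717 and 847 of all 13570 genes, or 1564 in all against 668 without the block. The median of the members was 0.59 on the log2 scale, beside 0.00 over all genes. The count was 1 without WT Day 3 replicate 3 or Il6-/- Day 3 replicate 1, 2 without WT Day 3 replicate 2, WT Day 5 replicate 1 or Il6-/- Day 3 replicate 2, and 8 at most. Over all genes 244 had a more positive change with all libraries, and 99 to 123 in the fits with 1 or 2 members. Dtx3l was the 1 member that passed in all 12 fits that left out a library. Parp9 passed in 8 of them, Ifi27 in 6, Oas3 and Phf11b in 5 each and Rsad2 in 2.

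For Rsad2 the difference in change was 2.30 ± 0.61 (edgeR FDR = 0.044) and for Oas3 1.22 ± 0.31 (edgeR FDR = 0.038). Ifi27 stood at 0.65 ± 0.16 (edgeR FDR = 0.029), Dtx3l at 0.59 ± 0.12 (edgeR FDR = 0.014), Phf11b at 0.56 ± 0.13 (edgeR FDR = 0.027) and Parp9 at 0.53 ± 0.12 (edgeR FDR = 0.024). These 6 had 4 patterns. Rsad2 and Phf11b rose in Il6-/- recipients and did not pass in WT recipients, and Ifi27 rose in both. Oas3 and Parp9 fell in WT recipients and did not pass in Il6-/- recipients. Dtx3l rose in Il6-/- recipients by 0.37 ± 0.09 on the log2 scale (edgeR FDR = 0.0016) and changed by -0.22 ± 0.08 in WT recipients (edgeR FDR = 0.034), and the WT change did not pass with upper-quartile scaling, without scaling, with the replicate block, with the GC-content offset or without any 1 of the 6 WT libraries. Rtp4 (0.99 ± 0.28, edgeR FDR = 0.051), Xaf1 (0.64 ± 0.18, edgeR FDR = 0.054) and, in the other direction, Bst2 (-0.58 ± 0.16, edgeR FDR = 0.053) missed the threshold here and passed in 9, 8 and 6 of the 10 other settings. Ifi44, Ifi35 and Parp14 passed in none of the 5 comparisons.

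**Figure D4:**
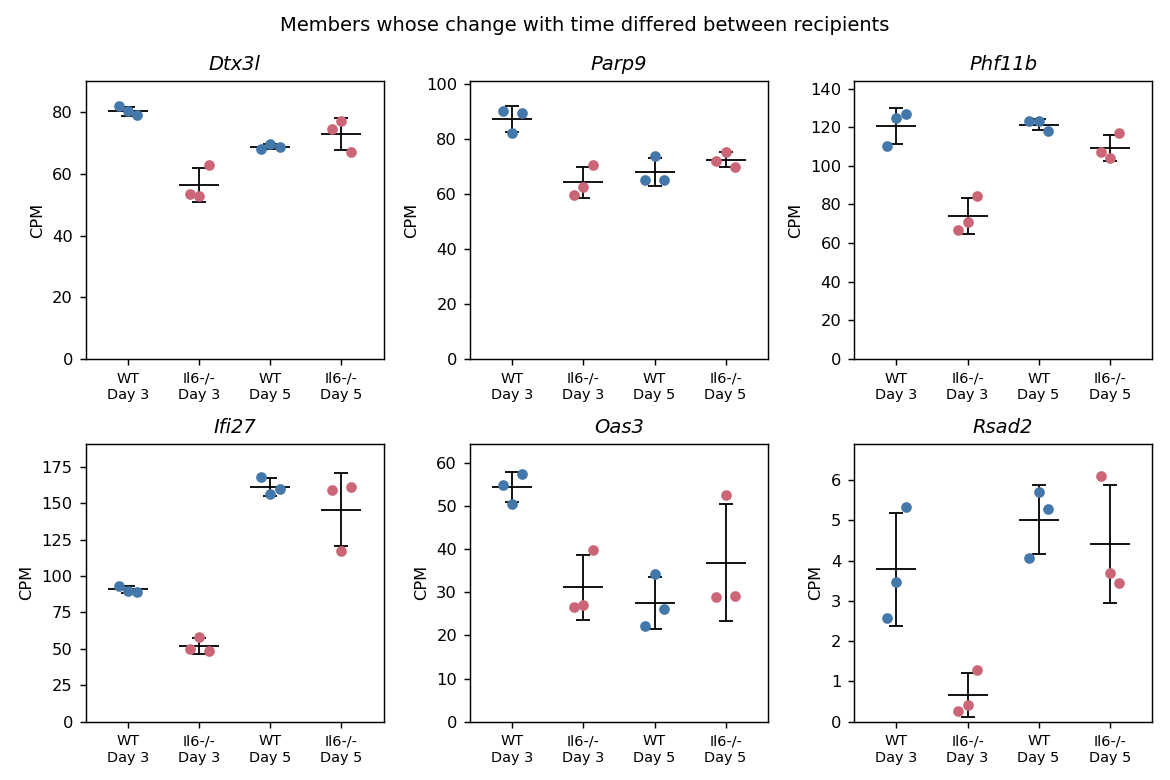
CPM (y axis, from 0) of the 6 members that passed in the interaction, in the 4 groups (x axis). Points are libraries (n = 3 a group), the long line is the group mean and the bars its SD. The Il6-/- Day 3 points are the lowest in the panels of Rsad2, Ifi27, Dtx3l and Phf11b, and in that of Oas3 the WT Day 3 mean is the highest.

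The pathway upstream of these genes was read from a list of 43 components, of which 24 were tested. On Day 3, 8 of the 24 were lower in Il6-/- recipients and 0 were higher, against 6.19% lower and 7.52% higher among all genes. The other 16 did not pass. At an unadjusted p under 0.05 in edgeR, 3 components were higher, beside 2000 of all 13570 genes. Ligands had almost no counts. Over the 12 libraries the 17 interferon genes searched had 14 counts in all, of which 8 were Ifnk, 5 Ifnz and 1 Ifnab, and Ifnb1 and all Ifna genes listed had 0. A count of 0 allows up to 3 counts in a library, or 1.15e-05% to 1.86e-05% of its counts, and covers counting error only. Reads with more than 1 alignment were left out of the counts, and shared stretches were not computed for these genes. Reads that fit several of them would therefore be missed.

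Of the receptor genes, Ifnar2 had 121, 111 and 122 CPM in WT and 84.7, 80.1 and 77.1 CPM in Il6-/- recipients on Day 3, and 152, 148 and 161 against 154, 136 and 137 CPM on Day 5. Ifnar1 had 84.0, 85.5 and 81.4 against 67.5, 67.0 and 76.0 CPM on Day 3, and 160, 147 and 137 against 158, 131 and 138 CPM on Day 5. Both were separate between genotypes on Day 3 and overlapped on Day 5. On Day 3 the log2 difference was -0.55 ± 0.08 for Ifnar2 (edgeR FDR = 0.00035) and -0.25 ± 0.09 for Ifnar1 (edgeR FDR = 0.075).

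Stat2, which encodes a component of ISGF3, had 47.3, 43.4 and 43.1 CPM in WT and 30.6, 30.2 and 29.8 CPM in Il6-/- recipients on Day 3, and 46.9, 46.8 and 46.3 against 47.6, 53.1 and 50.2 CPM on Day 5. Irf9, which encodes its DNA-binding partner, had 102, 91.3 and 97.7 against 74.5, 65.7 and 74.6 CPM on Day 3, and 130, 128 and 115 against 141, 126 and 137 CPM on Day 5. On Day 3 the Il6-/- libraries lay below WT for both genes. The difference on Day 3 was, on the log2 scale, -0.56 ± 0.08 for Stat2 (edgeR FDR = 0.00049) and -0.44 ± 0.08 for Irf9 (edgeR FDR = 0.0028).

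Irf7, the factor that amplifies interferon production and is itself an interferon-stimulated gene, had 78.1, 70.1 and 84.7 CPM in WT and 26.6, 22 and 31.8 CPM in Il6-/- recipients on Day 3, and 91.6, 89.8 and 85.7 against 76.8, 79.5 and 70.9 CPM on Day 5. The Il6-/- Day 3 libraries lay far below all others. Its Day 3 log2 difference was -1.53 ± 0.12 (edgeR FDR = 6.4e-06). Ddx58, the RNA sensor RIG-I, was lower at 12.4 to 17.4 against 28.5 to 31.9 CPM in WT (log2 difference -0.98 ± 0.15, edgeR FDR = 0.00074), and Ikbke, a kinase of IRF3 and IRF7, at 106 to 114 against 149 to 170 CPM (log2 difference -0.55 ± 0.09, edgeR FDR = 0.00072). Ifngr1, a chain of the interferon gamma receptor, was lower by less (log2 difference -0.32 ± 0.09, edgeR FDR = 0.033), and did not pass without any 1 of the WT Day 3 libraries or without Il6-/- Day 3 replicate 1 or 2. Ifng, chosen for mention after its values were seen, had 0.156, 0.544 and 0 CPM in WT and 0.950, 1.01 and 0.995 CPM in Il6-/- recipients on Day 3, on 0 to 21 counts, and did not pass (log2 difference 2.05 ± 0.66, edgeR FDR = 0.053).

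Among the inhibitors, Socs3, a suppressor of cytokine signaling that IL-6 induces, had 13.3, 15.8 and 19.9 CPM in WT and 3.43, 2.6 and 3.6 CPM in Il6-/- recipients on Day 3, and 22.1, 25.1 and 20.3 against 14.1, 10.3 and 12.9 CPM on Day 5. It was separate between genotypes on both days, with log2 differences of -2.34 ± 0.20 (edgeR FDR = 7.7e-06) and -0.86 ± 0.18 (edgeR FDR = 0.012), and without WT Day 5 replicate 2 or Il6-/- Day 5 replicate 2 the Day 5 difference did not pass. Socs1, which blocks JAK1 and TYK2, had 38.4, 46.6 and 29.2 CPM in WT and 18.5, 16.9 and 20.4 CPM in Il6-/- recipients on Day 5, a log2 difference of -1.03 ± 0.16 (edgeR FDR = 0.0028), and did not pass on Day 3 (-0.30 ± 0.16, edgeR FDR = 0.26). Tyk2 was higher in Il6-/- recipients on Day 5 (log2 difference 0.36 ± 0.09, edgeR FDR = 0.045), a call that was kept in 1 of the 12 fits that left out a library. These were the 3 pathway genes that passed on Day 5, 2 lower and 1 higher, against 3.35% lower and 1.27% higher among all genes.

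In the interaction 6 of the 24 pathway genes passed, all with a more positive change in Il6-/- recipients, against 1.80% more positive and 3.12% more negative among all genes. They were Socs3 (1.48 ± 0.26, edgeR FDR = 0.0081), Irf7 (1.30 ± 0.16, edgeR FDR = 0.0013), Stat2 (0.67 ± 0.12, edgeR FDR = 0.0079), Irf9 (0.55 ± 0.12, edgeR FDR = 0.017), Ikbke (0.46 ± 0.12, edgeR FDR = 0.044) and Ifnar2 (0.44 ± 0.11, edgeR FDR = 0.033). Stat2, Irf7 and Socs3 passed in all 12 fits that left out a library, Irf9 did not without WT Day 3 replicate 3 or Il6-/- Day 3 replicate 2, and Ikbke and Ifnar2 passed in 3 of the 12.

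**Figure D5:**
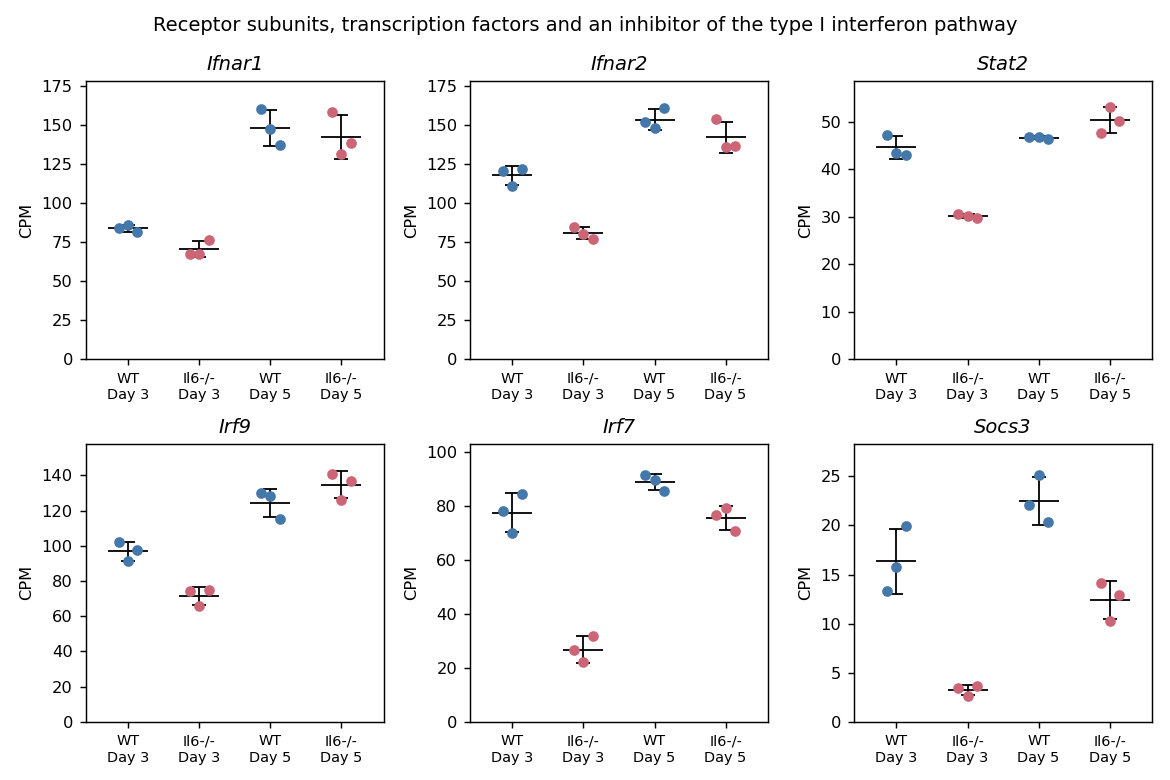
CPM (y axis, from 0) of both receptor subunits, Stat2, Irf9, Irf7 and Socs3 in the 4 groups (x axis). Points are libraries (n = 3 a group), the long line is the group mean and the bars its SD. On Day 3 the Il6-/- points lie below the WT points in all 6 panels.

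Markers of other cells are given beside the Day 3 result, since dendritic and other cells also express these genes. The plasmacytoid dendritic cell list summed to 16.0 to 24.2 CPM in WT and 13.5 to 20.8 CPM in Il6-/- recipients on Day 3, and to 69.5 to 76.6 and 46.6 to 77.5 CPM on Day 5, with Klk1 at 0 in every group. Pacsin1 made up most of this sum, with group means of 17.4, 13.9, 69.5 and 55.7 CPM in WT Day 3, Il6-/- Day 3, WT Day 5 and Il6-/- Day 5, beside 0.457, 0.445, 1.38 and 1.28 CPM for Siglech. The myeloid and dendritic cell list (11 genes) summed to 8.31 to 19.9 CPM in WT and 10.9 to 14.7 CPM in Il6-/- recipients on Day 3, where Itgax and Clec9a were at 0. The B cell list (7 genes) summed to 6.55 to 8.85 against 13.7 to 14.6 CPM, the NK cell list (4 genes) to 4.40 to 6.05 against 18.2 to 26.7 CPM with Klra8 at 0, and the stroma and endothelium list (5 genes) to 115 to 119 against 83.2 to 90.3 CPM. The B and NK cell lists were thus higher, and the stroma and endothelium list lower, in the Il6-/- Day 3 libraries without overlap. Most of the NK cell sum was Klrb1c, whose Day 3 mean was 4.82 CPM for WT recipients and 20.9 CPM for Il6-/- recipients, and most of the stroma and endothelium sum was Pecam1, at 116 and 85.5 CPM. Their part in the result was not tested.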

How the data were processed

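12 libraries of donor OTII cells (4 groups of 3, by the genotype and time in the labels) were profiled by poly(A) RNA-seq. According to the study's methods and the submitters' processing notes, the authors used Trim Galore 0.4.4 for trimming, STAR 2.5.2a for alignment (GRCm39) and HTSeq 0.6.1p1 for counting. The deposited values used here are raw read counts per gene symbol. The 5 summary lines of each table were kept out, and 11.7% to 17.3% of the reads fell outside genes. A deposited table of log2 CPM was not used here.

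Counts were analysed in R 4.3.3 with edgeR 4.0.16: filterByExpr kept 13570 of 40840 genes, TMM scaled the libraries, and 1 quasi-likelihood model of 4 groups gave each comparison, with Benjamini-Hochberg adjustment. The median biological coefficient of variation was 0.132. A gene passed at an FDR under 0.05. The scripts were tested on simulated counts. Alternatives were other scalings, filters, a replicate block, a GC offset, only the groups compared, limma-voom 3.58.1, DESeq2 1.42.0 and each library left out.

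The members and lists were chosen with earlier results of these data known. Values in every library are given for members past the FDR with at least a 2-fold change in a comparison of 2 groups, or past it in the interaction, and the rest by range. Pathway genes are named where they passed between genotypes, with Ifnar1, Ifnar2, Stat2, Irf9 and Irf7. Lengths and positions came from GENCODE vM39, not the authors' annotation, and likeness of transcripts is given as shared 50-base stretches in place of protein identity. No 2 libraries of a group agreed within sampling noise. On Day 5, same-numbered libraries of both genotypes correlated in their deviations from the group means (0.243, 0.206 and 0.129), so the block stands beside that comparison. The pairing comes from the data, since the labels give only a number. 1 item of the pathway list is not reported here.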

Additional observations from a re-analysis of the deposited data

Results flagged for a closer look

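The change from Day 3 to Day 5 differed between recipient genotypes, by the interaction term in edgeR at an FDR under 0.05, for 6 of 36 members and 6 of 24 pathway genes, each with a more positive change in Il6-/- recipients, against 1.80% more positive and 3.12% more negative among all genes. Among the members the difference on the log2 scale was 2.30 for Rsad2, 1.22 for Oas3, 0.65 for Ifi27, 0.59 for Dtx3l, 0.56 for Phf11b and 0.53 for Parp9. Among the pathway genes it was 1.48 for Socs3, 1.30 for Irf7, 0.67 for Stat2, 0.55 for Irf9, 0.46 for Ikbke and 0.44 for Ifnar2. With 3 libraries a group, no single library was tested for standing apart from its group.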

How the results depend on the processing

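Values by setting, with the count reported above given first. On Day 3, members higher in Il6-/- recipients numbered 0, and 1 (Bst2) with the replicate block, the GC-content offset, both together, only the groups compared, limma-voom or DESeq2, and 0 to 1 with a library left out. Members lower ranged from 15 to 30, and those lower by 2-fold or more from 6 to 15, with a library left out. On Day 5, members lower (2) numbered 1 without scaling, 5 without a low-count filter (1 higher), 4 with the replicate block and with the GC-content offset and block (1 higher in each), 0 with only the groups compared, 1 with limma-voom and 0 to 3 with a library left out. In WT recipients, members that fell with time (8) numbered 3 with upper-quartile scaling, whose median change was 0.27 with 4 members up by 2-fold or more, and 5 to 9 with a library left out; those down by 2-fold or more (1) numbered 2 with RLE scaling, no low-count filter, the block, the GC-content offset, both, only the groups compared, limma-voom and DESeq2, and 1 to 2 with a library left out, where 2-fold rises ranged from 1 to 3. In Il6-/- recipients, members that fell (2) numbered 1 with upper-quartile scaling (median 0.66), no scaling or the GC-content offset, and 1 to 2 with a library left out. In the interaction, members with a more positive change (6) numbered 10 with upper-quartile scaling and 10 without scaling, 15 without a low-count filter, 15 with the block, 14 with the GC-content offset and block, 11 with DESeq2 and 1 to 8 with a library left out, and those with a more negative change (0) numbered 1 with no filter, the filter over 1 CPM, the block, the GC-content offset, both, and DESeq2, and 0 to 1 with a library left out. The sign of 2 interaction values that did not pass turned with a library left out, Isg15 (-0.12 to 0.21) and Ifi35 (-0.01 to 0.12). Counts over all genes moved as well with a library left out. Genes lower numbered 482 to 1082 on Day 3 and 181 to 744 on Day 5, and 99 to 356 were more positive in the interaction. The longer response element was found in 7 members against 13 for the core. For each of these the cause was not tested.

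Upper-quartile scaling moved the median change of all genes from 0.09 to 0.29 in WT and to 0.32 in Il6-/- recipients. With the replicate block, 32 members were lower on Day 3. Same-numbered libraries of both genotypes correlated at 0.0325 to 0.0599 on that day, and different-numbered ones at -0.0683 to 0.0306. Between days within a genotype, same-numbered libraries correlated at -0.071 to 0.0707. Whether an equal number marks a shared experiment was not tested. The block changed calls over all genes from 1861 to 2658 on Day 3. The block with the GC-content offset gave 31. Of the results past the threshold, 906 kept direction and call with a library left out and 174 lost the call, and 941 and 37 did under the other settings. Members at a few counts in a library, such as Ifit3b and Oasl1, are limited by depth.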
